A study of Mus musculus with 16 samples.

Results

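The comparison described here set colons of mice given dextran sulfate sodium together with methylthioadenosine (DSS + MTA, 6 arrays) against colons of untreated control mice (4 arrays), so that it covered 10 of the 16 arrays of the study. Its arrays were chosen by the treatment in the sample titles, and no measured value entered that choice. The remaining 6 arrays, from mice given DSS without MTA, serve as side values. All mice were male C57Bl/6J and the RNA was of whole colon. The labels give no dose, no duration and no age. They do not say that each array came from a separate animal, so p-values measure only the spread between these samples, which may be technical. Values are log2 of the probe intensities on Illumina bead arrays, and a difference is DSS + MTA minus control unless said otherwise. The level of a probe says nothing about the level of another gene's probe.

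DSS is a sulfated polysaccharide that damages the lining of the colon, after which bacteria reach the tissue beneath it and neutrophils and monocytes enter. MTA is a sulfur-containing nucleoside that cells make as a by-product of polyamine synthesis and that the phosphorylase Mtap splits on the way back to methionine. In colitis of this kind the tissue makes cytokines and chemokines, the epithelium makes antimicrobial and repair proteins, stromal cells make matrix-degrading enzymes, vessels display adhesion molecules, and genes of mature colonocyte metabolism are expressed at a lower level.

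The colon genes Krt20, Vil1, Guca2a and Tff3 stood at log2 intensities of 12.3 to 15.2 on every array, and the chloride exchanger Slc26a3 at 6.19 to 8.19. Within groups, correlations between arrays ran from 0.910 to 0.991. The DSS + MTA arrays were not alike. DSS + MTA replicates 2 and 5 were highest in smooth muscle markers, with list means of 0.83 and 0.81 above the control mean, while the other DSS + MTA arrays reached at most 0.18. DSS + MTA replicate 2 was also highest in endothelial markers (0.90) and had low Reg3g. Because the RNA was of bulk tissue, fewer cells of a type and less RNA per cell cannot be told apart in anything that follows.

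Genes that stayed away from the control level despite MTA were found in both directions. By limma, 448 of 9770 features passed an adjusted p of 0.05 between DSS + MTA and control, of which 283 were higher (2.9% of all features) and 165 lower (1.69%), and 117 of the rises and 20 of the falls exceeded 2-fold. For DSS against the same controls, 848 were higher (8.68%) and 575 lower (5.89%). Of 297 features that DSS raised at least 2-fold, 120 still passed with DSS + MTA, 54 lay within 2-fold of control by their 95% confidence interval, and 123 met neither criterion. Of 49 that DSS lowered at least 2-fold, 20 still passed, 1 lay within 2-fold of control and 28 met neither. The count of 448 became 243 without DSS + MTA replicate 5, 721 without DSS + MTA replicate 6, and 249, 158 and 205 without control replicates 2, 3 and 4. In 365 of the 448 features the DSS + MTA and control arrays did not overlap. A lack of overlap in a gene named below is therefore common among features that passed. The median difference over all features was -0.02 with DSS + MTA and -0.04 with DSS. An unadjusted p under 0.05 by limma was reached by 2017 of 9770 features between DSS + MTA and control. Between DSS + MTA and DSS 1461 reached it.

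The largest rise was that of the probe ILMN_1253045, which has no gene name in the annotation used here. It had log2 intensities of 11.92, 13.15 and 14.57 (lowest, median and highest) in DSS + MTA colons, against 8.40, 8.31, 9.03 and 7.39 in control colons, a 32.1-fold rise (95% confidence interval of the log2 difference 3.77 to 6.24, adjusted p = 0.000333; DSS 5.29 on the log2 scale). All DSS + MTA arrays lay above all controls. ILMN_2757617, a further unnamed probe, differed by 2.88 ± 0.39 (SE; DSS 4.48), and both kept their calls under all 26 other settings tried. Among the named genes, Socs3 and Mfsd2a rose with close estimates for DSS + MTA and DSS. Socs3, which dampens cytokine signalling through STAT3, had log2 intensities of 10.48, 11.73 and 12.47 (lowest, median and highest) in DSS + MTA colons, against 8.39, 8.72, 8.20 and 8.26 in control colons. All DSS + MTA arrays lay above all controls, and the difference was 3.24 ± 0.29 (SE, adjusted p = 1.96e-05), or 9.45-fold. With DSS it was 3.53 ± 0.29, and DSS + MTA minus DSS was -0.29 ± 0.26 (adjusted p = 0.603). Mfsd2a, a transporter of lysophospholipids that carry omega-3 fatty acids, ran from 9.84 through a median of 10.58 to 11.22 in DSS + MTA colons, against 7.82, 8.01, 7.36 and 7.33 in control colons. Its groups did not overlap either. The difference was 2.92 ± 0.32 with DSS + MTA (adjusted p = 0.000188) and 2.91 ± 0.32 with DSS, and the 95% confidence interval of DSS + MTA minus DSS was -0.59 to 0.61. The AP-1 subunit Junb differed by 1.50 ± 0.17 (DSS 1.45), the stress-induced Ier3 by 1.30 ± 0.20 (DSS 1.79), and hexokinase Hk2, which traps glucose in the cell, by 1.24 ± 0.19 (DSS 1.38). Socs3, Mfsd2a, Junb, Ier3 and Hk2 kept their calls under all 26 other settings. Immediate early genes as a list had 3 of 13 measured members higher and 0 lower, with a median difference of 0.48. Hypoxia and glycolysis genes had 2 of 20 higher with a median of 0.16. The shares over all features were 2.9% higher and 1.69% lower. Jun (0.54 ± 0.14), another AP-1 subunit, completed the immediate early count and lost its call in 10 of the 16 fits that each omitted a single array (leave-one-out). The glycolytic enzyme Gapdh (0.33 ± 0.09) completed that of hypoxia and glycolysis and lost its call without DSS + MTA replicates 2, 4 or 5 or control replicates 2, 3 or 4, and that count was 4 without DSS replicate 3.

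**Figure D1:**
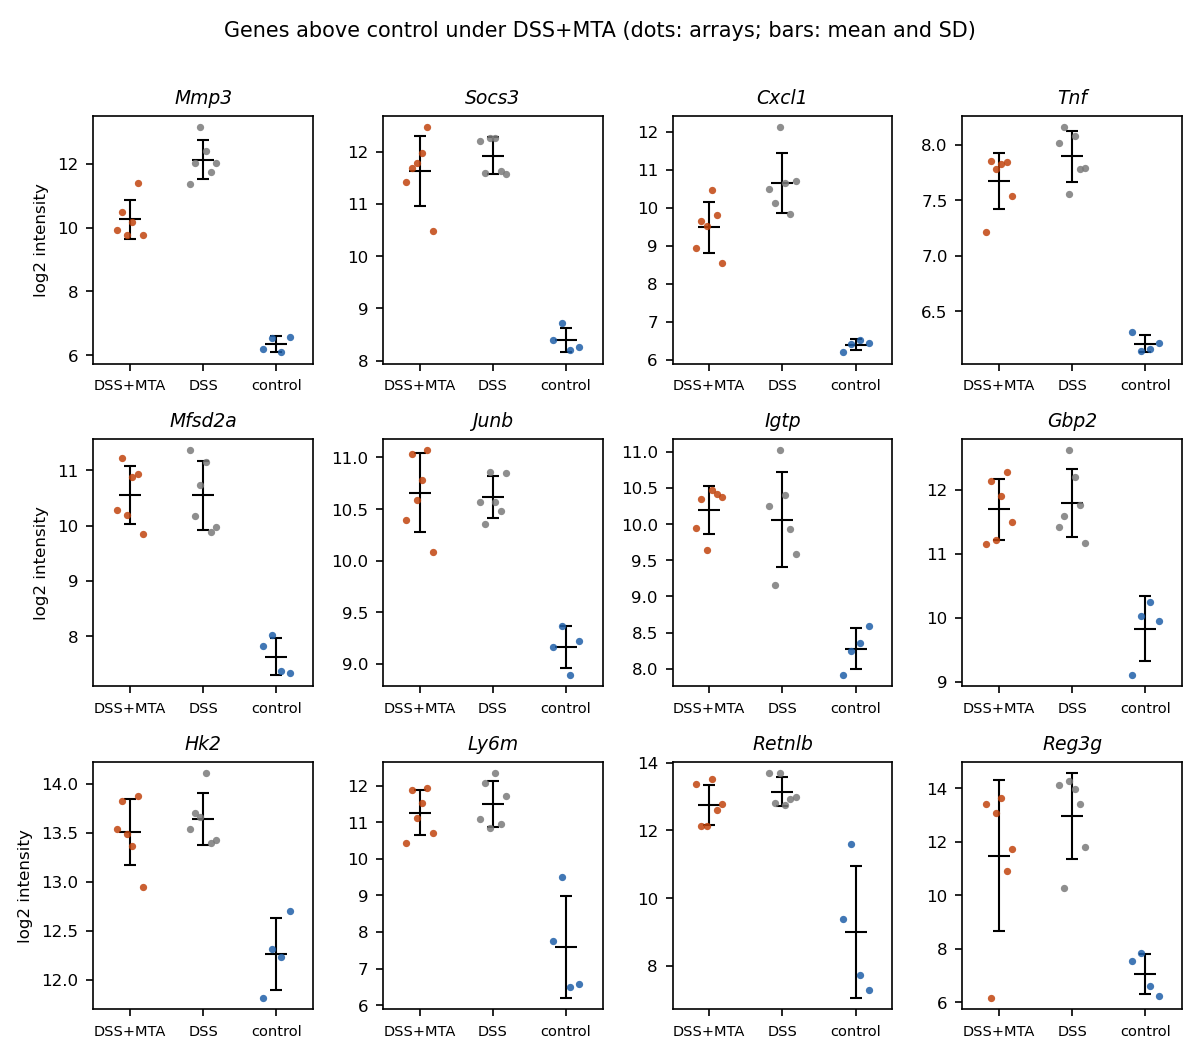
Log2 intensity (vertical axes) of 12 genes whose DSS + MTA mean was above control, with each array as a dot and the mean and SD of the DSS + MTA, DSS and control arrays as bars. Socs3, Mfsd2a and Junb stood about as high in DSS + MTA as in DSS colons, Mmp3 stood between DSS and control, and 1 DSS + MTA array held Reg3g at 6.15, below every control.

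Interferon-response genes were the list with the most members past the threshold, 14 of 21 measured, all higher than control, against 2.9% of all features. Their median difference was 0.81 with DSS + MTA and 0.74 with DSS, and the median of DSS + MTA minus DSS was -0.01, with 0 of 21 past the limma threshold and 3 with an unadjusted p under 0.05. Of all features, 0.0614% were higher and 0.317% lower with DSS + MTA than with DSS, and 1461 of 9770 had an unadjusted p under 0.05. Averaged over the list, the DSS + MTA arrays stood 0.78 to 1.19 above the control mean, the DSS arrays 0.65 to 1.43, and the control arrays from -0.10 to 0.17, so that every array of both DSS groups lay above every control. The guanylate-binding GTPase Gbp2, which attacks the vacuoles of intracellular microbes, had log2 intensities of 11.16, 11.71 and 12.28 (lowest, median, highest) in DSS + MTA colons, against 9.10, 10.03, 10.25 and 9.95 in control colons. It differed by 1.87 ± 0.30 (adjusted p = 0.00309), and by 1.96 ± 0.30 with DSS. Igtp, an immunity-related GTPase with a like role, ran from 9.65 through 10.37 to 10.47 in DSS + MTA colons, against 7.91, 8.25, 8.36 and 8.59 in control colons, a difference of 1.92 ± 0.28 (adjusted p = 0.0015; DSS 1.78). Both genes separated every DSS + MTA array from every control. Tap1, which carries peptides to class I molecules, differed by 1.14 ± 0.17 (DSS 0.86) and Stat2, a subunit of the interferon-activated factor ISGF3, by 0.60 ± 0.11 (DSS 0.74). These 4 genes kept their calls under every other setting that measured them, while the count for the list became 8 and 7 without control replicates 2 and 3. The 11 measured class II antigen presentation genes had 0 past the limma threshold, 2 with an unadjusted p under 0.05, and a median of 0.33.

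A short sequence recurs in promoters of the list's genes. Interferon-activated factors bind elements built from GAAA repeats, so the 250 bases upstream of each gene's first listed start (RefSeq, GRCm38.p6) were searched on both strands for GAAANNGAAA. It was present for 9 of 19 measured list members with a promoter entry (47.4%) and for 7 of the 13 of these past the threshold (53.8%), against 191 of 7355 tested features (2.6%) and 821 of 27025 genes of the table (3.04%). The windows of 3 of the genes above are shown with the match in capitals, because they show where it lies in genes that stayed high with MTA. It starts 59 bases upstream of the start in Gbp2 (chr3:142620413-142620662, plus strand), 34 in Igtp (chr11:58199306-58199555, plus strand) and 222 in Stat2 (chr10:128270248-128270497, plus strand), and in Gbp2 and Stat2 it reads on the opposite strand.
Gbp2: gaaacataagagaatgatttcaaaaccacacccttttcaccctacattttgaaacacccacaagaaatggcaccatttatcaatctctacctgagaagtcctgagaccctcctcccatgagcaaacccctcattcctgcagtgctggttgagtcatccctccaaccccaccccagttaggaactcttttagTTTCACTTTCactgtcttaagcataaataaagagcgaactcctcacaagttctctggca
Igtp: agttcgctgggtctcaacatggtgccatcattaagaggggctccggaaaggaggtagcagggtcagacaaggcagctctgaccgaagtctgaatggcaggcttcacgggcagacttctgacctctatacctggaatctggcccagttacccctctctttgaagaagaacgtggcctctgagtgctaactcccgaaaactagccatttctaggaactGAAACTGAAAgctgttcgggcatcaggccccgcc
Stat2: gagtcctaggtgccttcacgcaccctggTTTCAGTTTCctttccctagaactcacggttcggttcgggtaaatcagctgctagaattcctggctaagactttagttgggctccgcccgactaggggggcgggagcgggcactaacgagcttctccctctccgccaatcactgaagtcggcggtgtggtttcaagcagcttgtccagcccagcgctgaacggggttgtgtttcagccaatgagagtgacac
Tap1, which rose as well, had no match in its window. The list was chosen as genes that respond to interferon, so a high share of this motif goes with that choice. It is no separate evidence from these arrays. A match is a description of these letters and shows no binding.

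Of 17 measured cytokine and chemokine genes, 10 were higher with DSS + MTA than in control (16 with DSS), with median differences of 1.47 and 2.32. The share of all features that were higher was 2.9% with DSS + MTA and 8.68% with DSS. Between DSS + MTA and DSS the median was -0.93, and 3 of 17 were lower (0.317% of all features). These were Ccl2, Ccl7 and Ccl11, of which only Ccl7 passed against control. Cxcl1, which draws neutrophils, had log2 intensities of 8.55, 9.57 and 10.46 (lowest, median, highest) in DSS + MTA colons, against 6.20, 6.42, 6.52 and 6.44 in control colons. It differed by 3.09 ± 0.38 (adjusted p = 0.000455), and by 4.26 ± 0.38 with DSS. Tnf, the upstream inflammatory cytokine, ran from 7.21 through 7.80 to 7.85 in DSS + MTA colons, against 6.32, 6.14, 6.16 and 6.22 in control colons. Its difference was 1.47 ± 0.14 (adjusted p = 3.00e-05) with DSS + MTA and 1.69 ± 0.14 with DSS, and DSS + MTA minus DSS was -0.22 ± 0.12 (adjusted p = 0.391). Il1b, made by activated myeloid cells, differed by 2.01 ± 0.32 (DSS 3.32), and the monocyte chemokine Ccl7 by 1.82 ± 0.30 (DSS 3.11). In all 4 genes every DSS + MTA array lay above every control, and 365 of all 448 features that passed likewise did not overlap. The related monocyte chemokine Ccl2 was at 0.93 ± 0.31 with DSS + MTA (adjusted p = 0.098) and had risen by 2.32 ± 0.31 with DSS. The count of 10 became 6 without control replicate 2. Control levels of Cxcl1, Tnf and Ccl7 lay below the array median of 6.81, so the size of their differences depends on the background left in the intensities. With background subtracted, Tnf differed by 1.93.

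Genes of the NF-kappaB pathway, through which Tnf and Il1b act, were higher in 4 of 13 cases with a median of 0.27. With DSS 8 of 13 were higher. The share of all features that were higher was 2.9% with DSS + MTA and 8.68% with DSS. The 4 that passed with DSS + MTA included Tnfaip2 (1.50 ± 0.28), a TNF-induced gene, and the leukocyte adhesion molecule Icam1 (0.82 ± 0.19). The others were the atypical inhibitor-family members Bcl3 (0.97 ± 0.17) and Nfkbiz (0.90 ± 0.19), which act as co-regulators in the nucleus. Bcl3 and Tnfaip2 kept their calls under every other setting that measured them. Icam1 lost its call without DSS + MTA replicate 5 or control replicates 1, 2 or 3, and Nfkbiz without control replicate 4. Bcl3 was at 0.70 ± 0.17 with DSS, and DSS + MTA minus DSS was 0.27 ± 0.16 (adjusted p = 0.413).

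Antimicrobial and acute-phase genes had the highest median of the lists, 1.72. Of 19 measured genes, 6 were higher than control with DSS + MTA (2.9% of all features). With DSS 12 were higher (8.68% of all features), at a median of 3.23. Reg3g, a bactericidal lectin of the epithelium, had the largest estimate of any gene with a name, 4.42 ± 1.20 (adjusted p = 0.0461), and its values were 6.15, 12.39 and 13.62 (lowest, median, highest) in DSS + MTA colons, against 7.55, 7.82, 6.62 and 6.23 in control colons. The array at 6.15, DSS + MTA replicate 2, lay below all controls, the other 5 lay above them, and the call was lost in 14 of the 16 leave-one-out fits. Its relative Reg3b was lowest in the same array, at 7.86 against a DSS + MTA median of 14.89, and did not pass (2.41 ± 1.14, adjusted p = 0.244). Retnlb, a goblet cell protein that acts on bacteria, ran from 12.12 through 12.68 to 13.51 in DSS + MTA colons, against 9.37, 11.60, 7.74 and 7.28 in control colons. Its groups did not overlap although the controls spread widely, and it differed by 3.76 ± 0.61 (adjusted p = 0.00329), with DSS + MTA minus DSS at -0.39 ± 0.55. The calprotectin subunit S100a8, from neutrophils and monocytes, differed by 2.58 ± 0.47 (DSS 3.93), and its partner S100a9 by 2.01 ± 0.54 (DSS 3.44). S100a9 lost its call in 12 of the 16 leave-one-out fits. Lcn2, which withholds iron from bacteria (1.50 ± 0.53, adjusted p = 0.114), and Wfdc12, of the family of whey acidic proteins (1.94 ± 0.58, adjusted p = 0.0699), did not pass with DSS + MTA after rises of 3.64 and 4.27 with DSS. Control levels of S100a8, S100a9, Lcn2 and Wfdc12 lay below the array median. With background subtracted S100a8 differed by 3.24, S100a9 by 2.65 and Wfdc12 by 2.56, and Wfdc12 then passed (adjusted p = 0.0329). The count of 6 became 2 without DSS + MTA replicate 5 or any of the 4 controls, and 3 without DSS replicate 1 or 5.

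The list of injury-associated epithelial genes had 6 of 19 measured members higher with DSS + MTA (7 with DSS), with medians of 0.48 and 0.58. The share of all features that were higher was 2.9% with DSS + MTA and 8.68% with DSS. The RNA was of whole colon, so the cells that expressed these genes are not known. Ly6m, a small surface protein of the Ly6 family, had log2 intensities of 10.44, 11.32 and 11.94 (lowest, median, highest) in DSS + MTA colons, against 7.75, 9.49, 6.50 and 6.58 in control colons. All DSS + MTA arrays exceeded all controls, with a difference of 3.68 ± 0.51 (adjusted p = 0.00094) and of -0.24 ± 0.46 between DSS + MTA and DSS. The urokinase receptor Plaur differed by 0.97 ± 0.12 (DSS 1.37), and its ligand Plau by 1.04 ± 0.25 (DSS 1.95). Ly6c1 differed by 1.70 ± 0.42 and the membrane-binding Anxa2 by 0.48 ± 0.12. Clca4b, a metalloprotease of the CLCA family, was not on the list and differed by 2.81 ± 0.54 (DSS 2.88). Ly6m, Plaur and Clca4b kept their calls under every other setting that measured them. Ly6c1, Anxa2 and Plau lost theirs in 8, 6 and 5 of the 16 leave-one-out fits, and the list's count was 2 or 3 without any of DSS + MTA replicates 2 to 5 or of the controls.

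Of 16 measured matrix-degrading enzymes and inhibitors, 5 were higher than control with DSS + MTA (2.9% of all features) and 15 with DSS (8.68%). The list had the lowest median of DSS + MTA minus DSS, -1.04, with 4 of 16 lower (0.317% of all features). Mmp3, stromelysin 1, had log2 intensities of 9.77, 10.07 and 11.40 (lowest, median, highest) in DSS + MTA colons, against 6.20, 6.55, 6.09 and 6.59 in control colons, and ran from 11.37 to 13.16 in DSS colons. It stayed above every control but lay below every DSS array in 5 of 6 DSS + MTA arrays. The difference from control was 3.90 ± 0.33 (adjusted p = 1.39e-05) with DSS + MTA and 5.77 ± 0.33 with DSS, and DSS + MTA minus DSS was -1.86 ± 0.29 (adjusted p = 0.0171). Mmp10, stromelysin 2, differed by 3.35 ± 0.43 (DSS 5.53), the collagenase Mmp13 by 2.88 ± 0.49 (DSS 4.76), the metalloproteinase inhibitor Timp1 by 2.29 ± 0.38 (DSS 3.75) and the aggrecanase Adamts4 by 1.43 ± 0.24 (DSS 2.92). In each of these 4 genes all 6 DSS + MTA arrays lay below all DSS arrays and above all controls. These 5 genes were the members that passed, and they kept their calls under every other setting that measured them. Of the remaining members, 2 lay within 2-fold of control by their interval, Adamts1 and the membrane-bound Mmp14 (0.47 ± 0.25; DSS 1.27), named here after its value was seen, and Mmp14 met that criterion in 14 of 26 settings. The list's median was 0.66 with DSS + MTA and 1.55 with DSS. Control levels of Mmp3, Mmp10 and Adamts4 lay below the array median, and with background subtracted Mmp3 differed by 4.46.

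In all, 10 features passed both against control and against DSS, where 31 of 9770 were lower (0.317%) and 6 higher (0.0614%) with DSS + MTA than with DSS. Beside Mmp3, Mmp10, Adamts4 and Ccl7 they were the protease inhibitor Serpina3n (1.67 ± 0.41 against control and -1.78 against DSS), the basement membrane collagen Col18a1 (1.33 ± 0.29 and -1.37), the activin subunit Inhba (1.27 ± 0.23 and -1.11), the cholesterol hydroxylase Ch25h (95% confidence interval 0.46 to 1.54 against control, and -1.22 against DSS), the lipocalin Apod (0.85 ± 0.20 and -0.94) and the myeloid lectin receptor Clec4d (0.82 ± 0.22 and -0.97). Both comparisons share the DSS + MTA arrays. Inhba kept its call against control under every other setting that measured it. Serpina3n, Ch25h and Clec4d each lost it in 7 to 9 of the 16 leave-one-out fits, and Col18a1 and Apod in 3. The number of features past the threshold between DSS + MTA and DSS was 0 with only those arrays in the fit and ran from 5 to 208 over the leave-one-out fits.

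**Figure D2:**
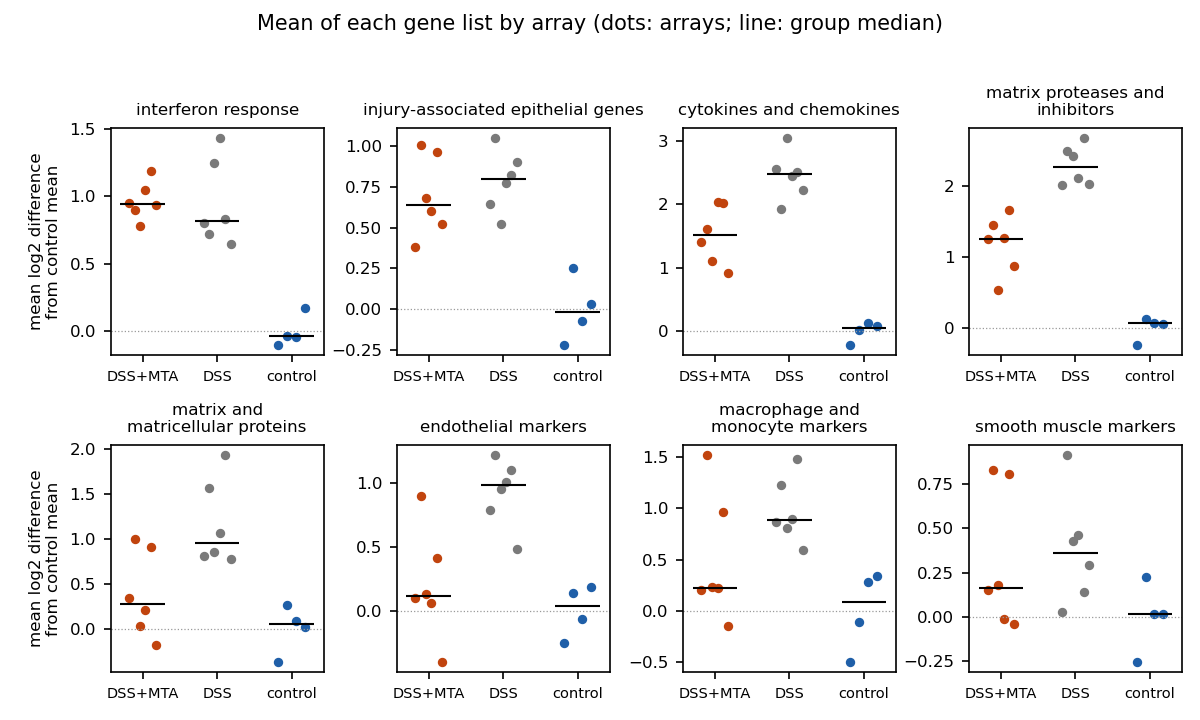
Mean log2 difference from the control mean over the measured genes of 8 lists (vertical axes), with each array as a dot and the group median as a line for DSS + MTA, DSS and control. The interferon list stood at 0.78 to 1.19 in DSS + MTA colons and 0.65 to 1.43 in DSS colons, whereas endothelial markers stood at -0.41 to 0.90 with DSS + MTA and 0.48 to 1.22 with DSS.

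Vessel and structural matrix genes had list medians nearer to control with DSS + MTA than with DSS. Of 15 measured endothelial markers, 0 were higher with DSS + MTA by limma, and 11 were higher with DSS. With DSS + MTA 4 had an unadjusted p under 0.05, as had 2017 of all 9770 features. Their medians were 0.20 with DSS + MTA and 0.93 with DSS. Of 18 structural matrix genes, 1 was higher with DSS + MTA, Col18a1, and 11 with DSS (medians 0.36 and 1.24). The share of all features that were higher was 2.9% with DSS + MTA and 8.68% with DSS. Features whose interval lay within 2-fold of control after a change of at least 2-fold with DSS numbered 55 (0.563% of all features), 4 of them in the endothelial and 3 in the matrix list, and their number became 87 without DSS + MTA replicate 2, 34 without DSS + MTA replicates 3 or 6 and 36 without control replicate 1. Ackr1, a chemokine-binding receptor of venules, had log2 intensities of 7.06, 7.82 and 8.71 (lowest, median, highest) in DSS + MTA colons, against 6.88, 7.79, 7.67 and 7.99 in control colons. The groups overlapped. The difference was 0.25 ± 0.28 (95% confidence interval -0.34 to 0.84), after 1.27 ± 0.28 with DSS. The TGF-beta co-receptor Eng was at 0.48 ± 0.16 (0.13 to 0.82; DSS 1.02), within 2-fold of control but with an interval wholly above it. The remaining endothelial markers that met the criterion, named here after their values were seen, were Plvap, a protein of vessel fenestrae (0.20 ± 0.24; DSS 1.16), and the junction molecule Esam (0.20 ± 0.28; DSS 1.10). The matrix genes that met it, likewise named afterwards, were the fibrillar collagen Col3a1 (0.16 ± 0.33; DSS 1.27) and the proteoglycans Dcn (0.28 ± 0.27; DSS 1.01) and Bgn (0.32 ± 0.31; DSS 1.20). P-selectin, Selp, through which leukocytes roll on vessels, was at 0.76 ± 0.25 with an interval of 0.23 to 1.29 (DSS 2.23), so it met neither criterion, and all 6 DSS + MTA arrays lay below all DSS arrays. Endothelial markers ran with smooth muscle markers in the DSS + MTA arrays, since replicates 2 and 5 were highest in both, with endothelial means of 0.90 and 0.41. In a fit with the smooth muscle mean as covariate, 0 endothelial markers were higher than control and 1 lower, 0 met the 2-fold criterion, and the list's median was -0.05. Without DSS + MTA replicate 6, 2 endothelial markers were higher. The matrix list's call, that of Col18a1, was lost without control replicates 1, 3 or 4.

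Single genes that lay within 2-fold of control by this criterion included signals to leukocytes and growth factors. The criterion allows a remaining rise, as in Hgf, Cp, Aldh1l2 and Lgi2 below, whose intervals lay wholly above control. Ccl11, the eosinophil chemokine eotaxin, had log2 intensities of 7.70, 8.18 and 9.13 (lowest, median, highest) in DSS + MTA colons, against 7.82, 8.63, 7.72 and 8.25 in control colons, and ran from 9.20 to 10.91 in DSS colons. It overlapped the controls and lay below every DSS array. The difference was 0.21 ± 0.34 (95% confidence interval -0.50 to 0.93, adjusted p = 0.778), after 1.74 ± 0.34 with DSS. Chil3, a chitinase-like protein of alternatively activated macrophages, was at 0.31 ± 0.31 (-0.34 to 0.96; DSS 1.84), the matrix protease Adamts1 at 0.32 ± 0.20 (-0.10 to 0.74; DSS 1.37), the BMP modulator Bmper at 0.37 ± 0.20 (-0.05 to 0.79; DSS 1.44) and hepatocyte growth factor Hgf at 0.45 ± 0.15 (0.13 to 0.77; DSS 1.35). Chil3, Adamts1 and Hgf were below the array median in DSS + MTA and control colons alike, so a remaining difference could be compressed there. The lowest mean over all 16 arrays that passed the intensity filter was 6.82. These genes lay under it in both of those groups and passed only through their DSS levels. Their low intensities limit what the criterion shows for them. The ferroxidase ceruloplasmin, Cp, was at 0.50 ± 0.21 (DSS 1.64), the endothelin receptor Ednrb at 0.47 ± 0.23 (DSS 1.48), the phosphatase Dusp1, an immediate early brake on MAP kinases, at 0.39 ± 0.21 (DSS 1.19) and the folate enzyme Aldh1l2 at 0.53 ± 0.18 (DSS 1.30). Lgi2 (0.62 ± 0.18; DSS 1.57) and the sulfated steroid transporter Slc10a6 (0.49 ± 0.23; DSS 1.57) complete those named by size. Lgi2 passed as higher than control in 6 of the 25 other settings that measured it, Eng in 2 and Hgf in 1. Adamts1 and Bmper met the criterion in all 25 settings that measured them and Dusp1 in 25 of 26. For Adamts1, Chil3 and Hgf such counts carry the limit of low intensity given above. Ccl11 met it in 21 of 26, Hgf in 23 of 25, Chil3 in 15, Slc10a6 in 12 and Lgi2 in 8 of 25. With an interval within -0.5 to 0.5, 1 feature was left.

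**Figure D3:**
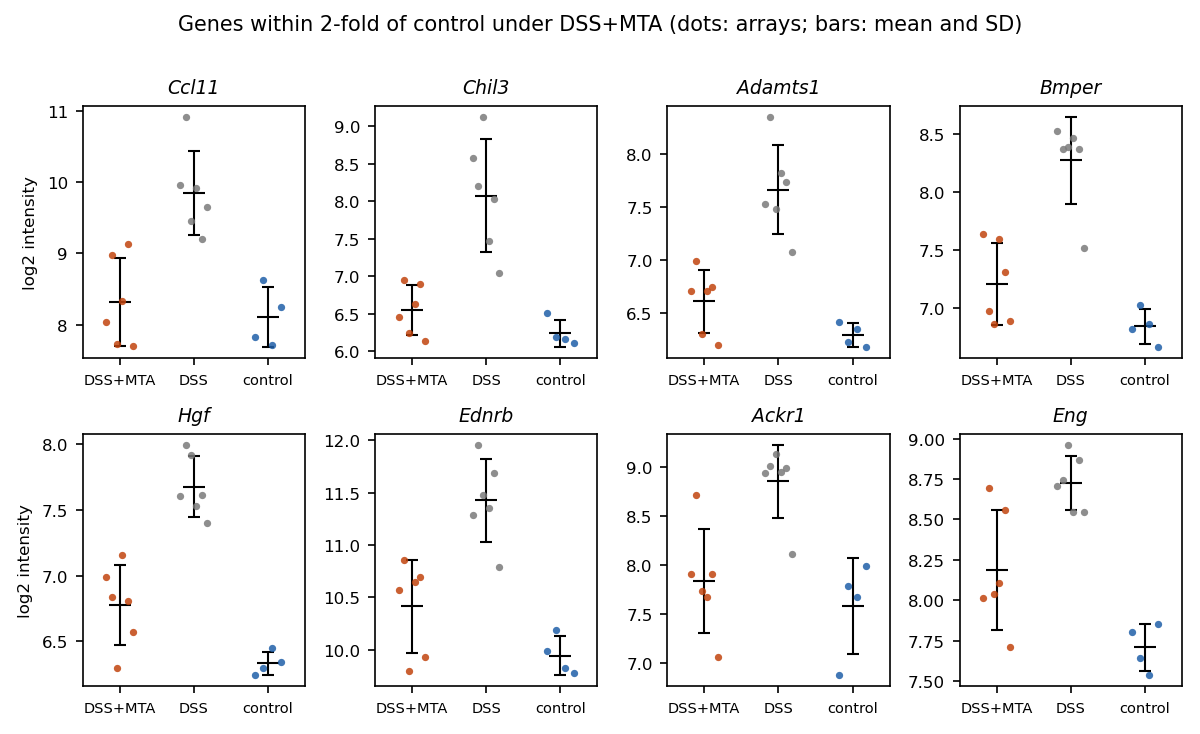
Log2 intensity (vertical axes) of 8 genes that DSS raised and whose DSS + MTA level had a 95% confidence interval within 2-fold of control, with each array as a dot and the mean and SD of the DSS + MTA, DSS and control arrays as bars. In Ccl11, Chil3, Adamts1 and Hgf every DSS + MTA array lay below every DSS array and the groups of DSS + MTA and control overlapped. DSS + MTA and control means of Chil3, Adamts1 and Hgf lay below the array median.

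Falls that persisted included genes of metabolism and transport. Ugt2b35, which conjugates steroids and xenobiotics to glucuronic acid, had log2 intensities of 6.10, 7.05 and 8.10 (lowest, median, highest) in DSS + MTA colons, against 8.66, 8.27, 8.44 and 8.55 in control colons. All DSS + MTA arrays lay below all controls, and the difference was -1.48 ± 0.30 (adjusted p = 0.0103; DSS -1.42). Odf3b, named for the outer dense fibres of sperm tails, ran from 6.91 through 7.74 to 8.34 in DSS + MTA colons, against 9.32, 9.28, 9.32 and 8.88 in control colons, a difference of -1.51 ± 0.26 (adjusted p = 0.00474; DSS -2.13). The vitamin transporter Slc5a6, which takes up biotin and pantothenate, was at -1.16 ± 0.23 (DSS -1.04), Shisa2, which holds back Wnt and FGF receptors, at -1.29 ± 0.25 (DSS -1.22), and Hpgd, which inactivates prostaglandins, at -0.89 ± 0.16 (DSS -0.89). These 5 genes kept their calls under every other setting that measured them. Nxpe2 (-2.39 ± 0.55), the cytochrome P450 Cyp4b1 (-2.24 ± 0.56), the sulfotransferases Sult1a1 (-1.61 ± 0.41) and Sult1c2 (-1.51 ± 0.39), the medium-chain acyl-CoA synthetase Acsm3 (-1.46 ± 0.34), Pbld2 (-1.26 ± 0.30) and the plasma protein precursor Ambp (-1.19 ± 0.31) had calls that were lost in 3 to 8 of the 16 leave-one-out fits. Edn2, the vasoconstrictor endothelin 2, was at -1.40 ± 0.37 (adjusted p = 0.0405) with DSS + MTA and -0.84 ± 0.37 with DSS. It lost its call in 10 of those fits. In all, 99 features passed with DSS + MTA and not with DSS, 8 of them by over 2-fold, and 0 of the 99 passed between DSS + MTA and DSS, so a difference between the treated groups was not shown for them.

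Xenobiotic and respiratory chain lists held fewer genes past the threshold with DSS + MTA than with DSS, and that difference was not itself tested. Of 44 xenobiotic and steroid metabolism genes, 5 were lower and 1 higher with DSS + MTA (15 and 0 with DSS), with medians of -0.47 and -0.68. Of all features, 1.69% were lower and 2.9% higher with DSS + MTA, and 5.89% lower and 8.68% higher with DSS. Cyp2s1 (-0.93 ± 0.18), an extrahepatic cytochrome P450, and the glutathione transferase Gstm1 (-0.79 ± 0.17) passed beside Cyp4b1 and the sulfotransferases, and the aldo-keto reductase Akr1b8 was higher (1.06 ± 0.26; DSS 0.64). Akr1b8 lost its call without DSS + MTA replicate 5 or control replicates 3 or 4, with only the compared arrays and with the smooth muscle covariate (adjusted p of 0.059 to 0.103 in these 5 settings). Gstm1, whose kept probes differed in sign, was at -0.39 with the mean of its probes (adjusted p = 0.0779), and it also lost its call with only the compared arrays and without control replicates 3 or 4. Cyp2s1 lost its call only without control replicate 3. The list's count of lower genes was 0 without control replicate 3, 2 without control replicate 4 or DSS + MTA replicates 2, 4 or 5, 3 without control replicates 1 or 2, and 8 without DSS + MTA replicate 6. The glutathione transferase Gsta3 had log2 intensities of 9.16, 10.49 and 10.90 (lowest, median, highest) in DSS + MTA colons, against 10.25 to 11.04 in control colons, and the groups overlapped. Its difference was -0.48 ± 0.27 (95% confidence interval -1.06 to 0.10) after -1.85 ± 0.27 with DSS, and DSS + MTA minus DSS was 1.37 ± 0.24 (adjusted p = 0.0309). Of 37 respiratory chain subunits, 1 was lower with DSS + MTA, the ATP synthase subunit Atp5c1 (-0.39 ± 0.09), and 13 with DSS, with medians of -0.12 and -0.47. Atp5c1 lost its call without control replicates 1 or 4. The sulfur-handling enzymes Tst, which detoxifies sulfide and cyanide, and Cdo1, which oxidises cysteine, were at -0.59 ± 0.18 (interval -0.98 to -0.21; DSS -1.06) and -1.03 ± 0.30 (adjusted p = 0.0599; DSS -1.99). Tst was the single feature lowered at least 2-fold by DSS whose interval lay within 2-fold of control, and it met that criterion in 11 of 26 settings and passed as lower than control in 5. Csad, which makes hypotaurine, stayed lower (-0.73 ± 0.17; DSS -0.78) and Chac1, which degrades glutathione, higher (1.07 ± 0.23; DSS 1.60), and each lost its call without control replicates 3 or 4.

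**Figure D4:**
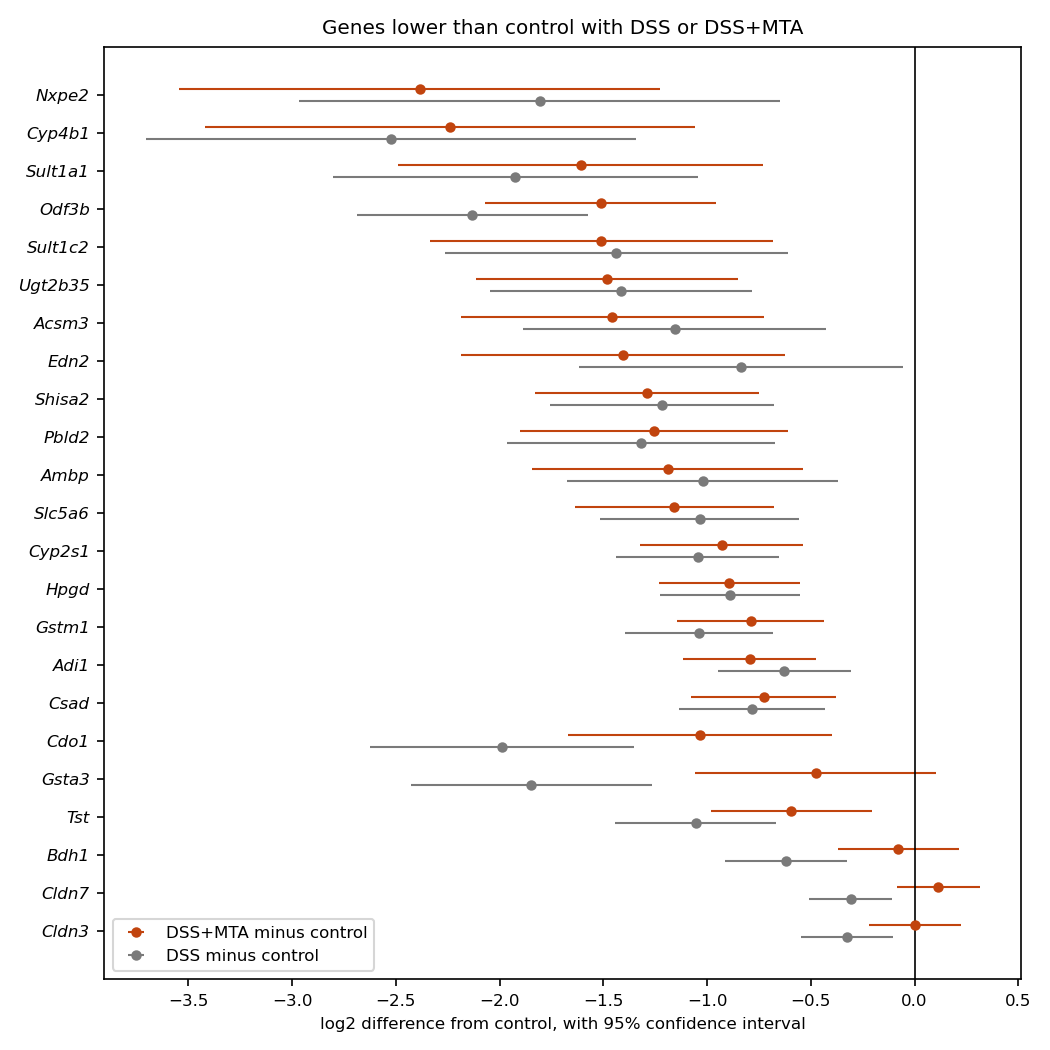
Log2 difference from control (horizontal axis) of 23 genes, with the 95% confidence interval of the limma fit, for DSS + MTA and for DSS. Ugt2b35, Shisa2, Slc5a6 and Hpgd lay about equally low in both groups, whereas Gsta3 was at -0.48 with DSS + MTA and -1.85 with DSS.

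No tight junction gene, of 13 measured, passed between DSS + MTA and control (1 of 13 had an unadjusted p under 0.05), and the list's median was -0.03, against -0.25 with DSS. Taken gene by gene, however, the median of DSS + MTA minus DSS was 0.02. In that comparison 1 of 13 was higher (0.0614% of all features). The list means by array had medians of -0.07 with DSS + MTA and -0.11 with DSS, so a shift of the list between these groups is not shown. Claudin 7, Cldn7, which seals the colon epithelium, had log2 intensities of 10.28, 10.48 and 10.66 (lowest, median, highest) in DSS + MTA colons, against 10.29, 10.48, 10.32 and 10.32 in control colons. The groups overlapped, with a difference of 0.11 ± 0.09 (95% confidence interval -0.09 to 0.31), and DSS stood at -0.31 ± 0.09. Claudin 3, Cldn3, was at 0.00 ± 0.10 (-0.22 to 0.22; DSS -0.32). The pore-forming Cldn2 had an interval of -3.75 to 0.06 and Cldn4 one of 0.26 to 1.62, so neither is shown to be near control. The Wnt-responsive stem cell receptor Lgr5 was lower with DSS + MTA (-1.07 ± 0.26, adjusted p = 0.0318; DSS -1.44), as 1 of 7 measured crypt genes (1.69% of all features). Lgr5 lost the call without DSS + MTA replicates 2 or 5. In 5 further leave-one-out fits its probe was below the filter on low intensities. DSS + MTA levels of Lgr5 lay below the array median, at a mean of 6.72. Its neighbour in that pathway, Axin2, was at -0.84 ± 0.31 (adjusted p = 0.131; DSS -1.26). Cell cycle genes had 0 of 25 past the limma threshold (3 with an unadjusted p under 0.05; 6 lower with DSS), with a median of -0.26 that was 0.05 without DSS + MTA replicate 2. Absorptive colonocyte markers had 0 of 21 past it (8 unadjusted), enteroendocrine markers 0 of 11 (0 unadjusted), and fatty acid oxidation and ketogenesis genes 0 of 22 (9 unadjusted). Of all features 2017 of 9770 had an unadjusted p under 0.05. Without control replicate 1, 2 absorptive colonocyte markers were higher.

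Of the genes that make and use MTA, Mtap stood at the control level. It was at 8.12 ± 0.18 in DSS + MTA colons (SD, n = 6) and 8.06 ± 0.09 in control colons (SD, n = 4), a difference of 0.07 ± 0.13 with a 95% confidence interval of -0.21 to 0.35, inside 2-fold. Of 21 measured genes of methionine salvage and polyamines, 3 were higher and 2 lower (4 and 3 with DSS). The shares over all features were 2.9% and 1.69% with DSS + MTA and 8.68% and 5.89% with DSS. The list's higher count ran from 1 (without control replicates 2 or 3) to 4 in the leave-one-out fits. The spermine oxidase Smox, which breaks spermine down, had log2 intensities of 9.79, 9.92 and 10.37 (lowest, median, highest) in DSS + MTA colons, against 9.09, 9.14, 8.92 and 8.97 in control colons. It did not overlap the controls and differed by 0.95 ± 0.13 (adjusted p = 0.000819; DSS 1.24). The polyamine acetylase Sat1 differed by 0.39 ± 0.09 (DSS 0.45). Bhmt2, a methyltransferase that makes methionine and is named here after its value was seen, differed by 1.02 ± 0.26 (DSS 1.52) from a dim control level of 6.30 and lost its call in 7 of the 16 leave-one-out fits. Adi1, a dioxygenase of the salvage path downstream of Mtap, had log2 intensities of 8.63, 8.85 and 9.31 in DSS + MTA colons, against 9.56, 9.82, 9.55 and 9.90 in control colons, and differed by -0.79 ± 0.15 (adjusted p = 0.00841; DSS -0.63). Mat2b, a regulatory subunit of the enzyme that makes S-adenosylmethionine, differed by -0.42 ± 0.10 (adjusted p = 0.03; DSS -0.19). Smox and Adi1 kept their calls under all 26 other settings, Sat1 lost its call without control replicates 2 or 3, and Mat2b in 6 of the 16 leave-one-out fits. Of the 8 measured arginine methyltransferase genes, whose enzymes MTA inhibits, and the 8 adenosine genes, 0 passed by limma (0 and 1 had an unadjusted p under 0.05), and their medians were -0.08 and 0.01.

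Markers of cell types that enter or line the inflamed colon differed by list in their calls, where 2.9% of all features were higher and 1.69% lower. Neutrophil markers were higher in 3 of 11 cases (7 with DSS; medians 0.73 and 1.53), and S100a8 was the member that kept its call throughout, so that the count was 1 in 9 of the 16 leave-one-out fits, among them that without DSS + MTA replicate 2. Of 12 macrophage and monocyte markers, 1 was higher (4 with DSS; medians 0.45 and 1.09), the beta-glucan receptor Clec7a at 1.55 ± 0.30, whose 3 kept probes gave differences of -0.05 to 1.55. The macrophage list mean was 1.52 and 0.96 above control in DSS + MTA replicates 2 and 5 and at most 0.23 in the other DSS + MTA arrays. The histamine-forming enzyme Hdc, the single measured mast cell and eosinophil marker, ran from 7.36 through 8.08 to 9.09 in DSS + MTA colons, against 6.39, 6.77, 6.45 and 6.54 in control colons, and differed by 1.63 ± 0.31 (adjusted p = 0.00847; DSS 2.40). T and NK cell markers (6 measured) and B and plasma cell markers (6 measured) had 0 past the limma threshold and 0 with an unadjusted p under 0.05. DSS + MTA replicate 3 was highest in the T and NK cell list, with the co-receptor Cd8b1 at 10.91 against a DSS + MTA median of 6.88. Of 8 enteric neuron and glia markers 1 was higher, the tachykinin precursor Tac1 (1.31 ± 0.35, adjusted p = 0.0443; DSS 1.55), which lost its call in 11 of the 16 leave-one-out fits. Of 13 complement and coagulation genes 3 were higher, Plaur, Plau and the complement component C4b (1.25 ± 0.33, adjusted p = 0.039; DSS 2.04), and C4b lost its call in 10 of those fits. Goblet cell genes had 1 of 12 higher, Retnlb, prostaglandin genes 1 of 11 lower, Hpgd, and stress response genes 1 of 18 higher, Chac1. The red blood cell gene Hba-a1, the single one measured, was at 1.49 ± 0.46 (adjusted p = 0.0768). Adipocyte markers had 0 of 6 past the threshold (0 unadjusted) with a median of -0.82, and their list means ran from -1.77 to 0.63 in DSS + MTA colons and from -1.31 to 1.31 in control colons, so these markers were uneven within both groups. Smooth muscle markers had 0 of 14 past the threshold (3 unadjusted) and a median of 0.26, and all 14 had a DSS + MTA mean above that of control. With these markers as a covariate the interferon list had 11 members higher (14 without it), the cytokine list 8 (10) and the protease list 5 (5). The antimicrobial list then had 4 higher (6 without it), the injury-associated epithelial list 2 (6) and the neutrophil list 1 (3), and the xenobiotic list had 3 lower (5). The part that uneven tissue makeup plays in the other results was not tested.

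**Figure D5:**
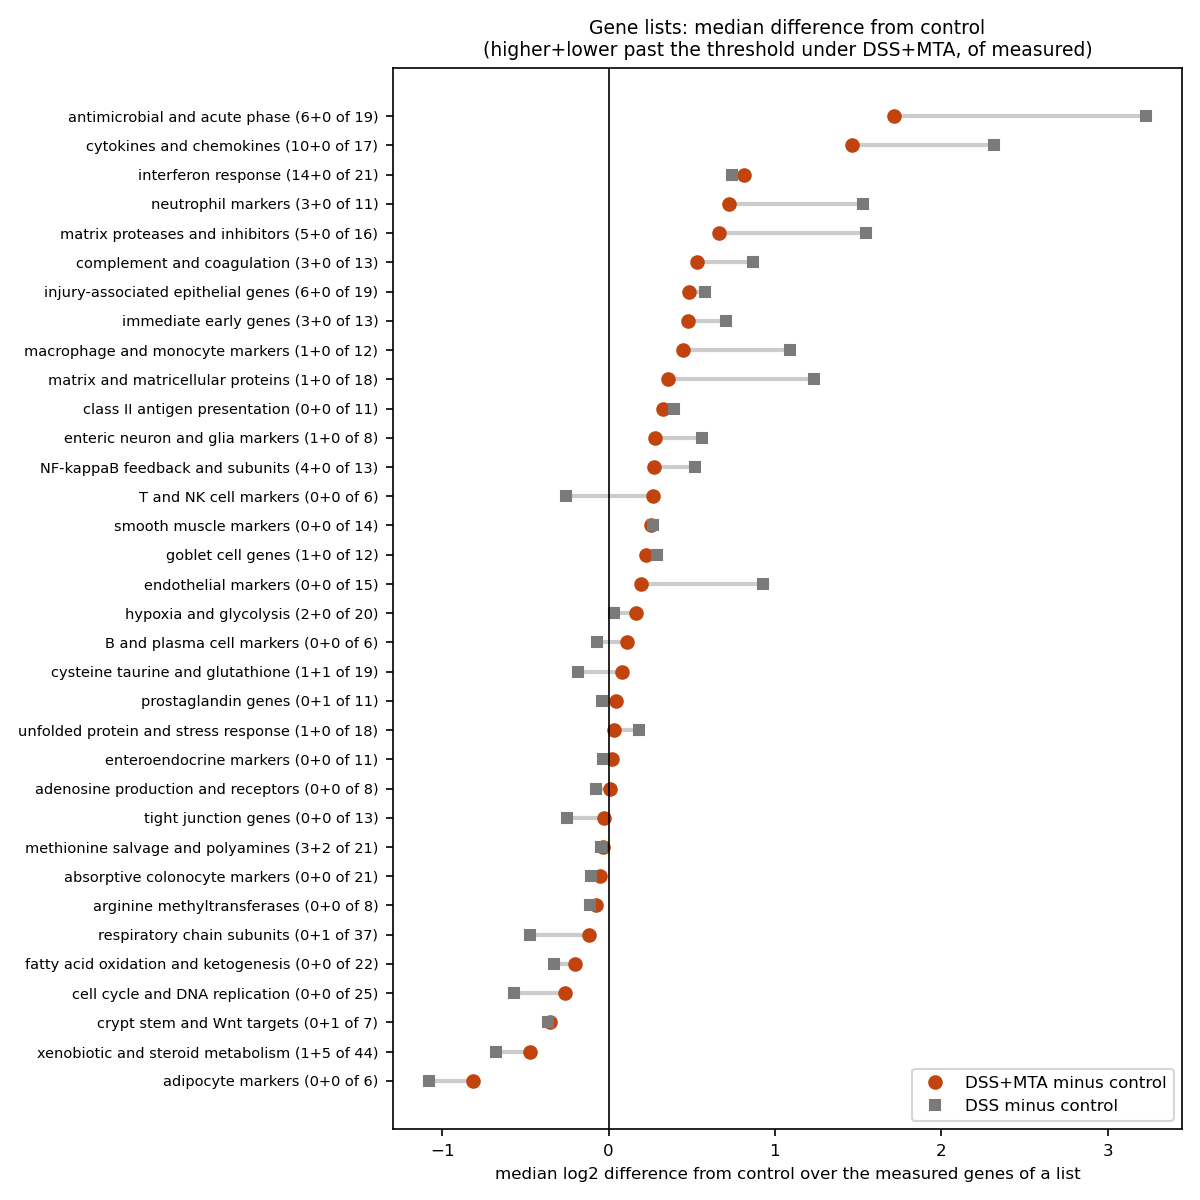
Median log2 difference from control (horizontal axis) over the measured genes of each list with at least 5 of them, as a dot for DSS + MTA and a square for DSS, with the number of genes past the threshold under DSS + MTA beside each name. Antimicrobial, cytokine and interferon lists lay furthest above control of those plotted (1.72, 1.47 and 0.81 with DSS + MTA), and the interferon list was among those whose DSS + MTA and DSS medians lay close together.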

How the data were processed

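Total RNA of whole colon was amplified, labelled and hybridised to Illumina 1-colour bead arrays, per the labels' protocols. The deposited values used here are the authors' intensities of 25697 probes on a linear scale. Software, background treatment and normalization were not given in the sources used here. Array medians of 112.012 to 112.22 show that arrays had been scaled to each other, and no value was below 42.017, so remaining background makes the differences of dim probes smaller. The 32 columns of un-normalized signals and detection p-values are named by array position, could be given to no sample and were not used, and an effect of the slides could not be examined. Detection filtering and renormalization from those columns, planned where they could be matched, were therefore replaced by the planned filter on mean intensity.

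Log2 intensities were taken without further normalization, and the upper 50% of probes by mean over all 16 arrays, 12848 in number, entered the fit. The highest-mean probe stood for each gene, giving 9770 features, 9056 of them named. Of the probes, 23978 had 1 gene symbol in the platform annotation, 0 had several and 1719 had none, and 23962 of the named probes' gene identifiers were in the RefSeq table of GRCm38.p6. Of 212 named genes, 43 had several kept probes, and those of 4 (Acta2, Clec7a, Gstm1 and Lyz1) differed in sign. Group means over all 16 arrays were fitted without a covariate by the lmFit and eBayes functions of limma 3.58.1, under R 4.3.3, two-sided, with Benjamini-Hochberg adjustment over all features at 0.05. Errors of differences are the fit's standard errors. A gene was near control again where DSS changed it at least 2-fold past the threshold, DSS + MTA did not pass, and the 95% confidence interval of DSS + MTA minus control lay within -1 to 1. In simulated data with 200 changed features among 9770, the steps found 38.9% of changes of 0.5 and 82.6% of changes of 1 for DSS + MTA against control, with 8 false calls of 126. The simulated noise was independent between features. The real arrays hold shifts shared by many genes, so these rates need not hold for them. The number of arrays limits the precision.

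Genes were named by rank of change in each direction, by p within each of 36 gene lists (757 genes, 673 on the array, 526 measured), by loss of the DSS change within lists, and by passing both against control and against DSS, with Mtap added. The comparison, the lists and the rule were chosen with earlier results of these data known, so lists are described by counts and medians without a test of their own. The alternatives covered the fit, scaling, filters, probes per gene, a smooth muscle covariate and leaving out each array.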

Additional observations from a re-analysis of the deposited data

Results flagged for a closer look

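Single arrays that stood apart from the rest of their group were looked for in the DSS + MTA and in the control arrays, in the 101 genes and unnamed probes that meet the naming rule and are given in the text. Of 202 such groups 10 had an array whose gap to its neighbour took up more of the group's range than the critical value of Dixon's test, where chance gives about 1 in 20. The number flagged was thus about what chance gives, and the arrays below are listed as a description.

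In DSS + MTA colons, replicate 2 held Reg3g at a log2 intensity of 6.15 (next 10.91) and its relative Reg3b at 7.86 (next 14.37), both genes for antibacterial lectins of the epithelium. Replicate 3 held the T cell co-receptor Cd8b1 at 10.91 (next 7.39).

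In control colons, replicate 1 was low in the acyl-CoA synthetase Acsm3 (10.40, next 11.20) and the glutathione transferase Gsta3 (10.25, next 10.92) and high in the prostaglandin-inactivating Hpgd (12.66, next 12.15). Replicate 2 was high in the folate enzyme Aldh1l2 (6.92, next 6.60) and in Cldn7 (10.48, next 10.32), replicate 3 in the chemokine Ccl2 (6.11, next 5.99), and replicate 4 was low in Odf3b (8.88, next 9.28).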

How the results depend on the processing

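Of 71 named genes past the threshold between DSS + MTA and control, 37 kept the call under all of the 26 alternatives that measured them, 0 turned in direction under any, and the rest lost the call under at least 1. Leaving out each array in turn gave 158 to 721 features for DSS + MTA against control (448 with all arrays), 797 to 1716 for DSS against control (1423), 5 to 208 for DSS + MTA against DSS (37) and 34 to 87 near control again (55). Weights for array quality gave 1088, 2577, 224 and 90 in the same order, and the upper 25% of probes, which tests fewer features, gave 289, 844, 5 and 28. With the smooth muscle mean as covariate, DSS against control gave 727, DSS + MTA against DSS 274, and 33 features were near control again. With only the compared arrays in the fit, DSS + MTA against DSS gave 0, and blocking on accession order gave 21. An adjusted p under 0.01 left 126 features for DSS + MTA against control, and an interval within -0.5 to 0.5 left 1 near control. Replicate numbers were not used to pair the samples in the main fit. The deviations of same-numbered arrays correlated as low as -0.311, and in several pairs not above 0.1. The highest correlations, all positive, were those among the arrays numbered 1 and that between DSS + MTA and DSS replicates 2. Whether same-numbered arrays belong together was not tested. A replicate block gave 578 features for DSS + MTA against control and 253 for DSS + MTA against DSS. The cause of these shifts was not tested. Of the genes given in the text by the naming rule, 20 had a control level below the array median, which limits the sizes given for the 12 of them past the threshold (Mmp3, Mmp10, Adamts4, Cxcl1, Tnf, Ccl7, S100a8, S100a9, Hdc, Inhba, Clec7a and Clec4d), and bulk tissue with uneven muscle limits those of vessel and matrix genes.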
